A study of Mus musculus with 12 samples.

Results

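The genes described here form a module of 32 genes of fatty acid oxidation and ketone body formation, chosen by name from the 54532 genes of the deposited tables. All 32 names were found, each in a single row. Small intestine of C57BL/6J mice was profiled by RNA-seq in 12 libraries, 3 for each of 4 groups. The flox mice carry floxed Piezo1 alleles that are intact. The CKO mice are described as lacking Piezo1 in intestinal epithelial cells alone, which would leave the gene in the other cells of the gut wall. Piezo1 encodes a mechanically gated cation channel. Both genotypes were sampled in a control state and with necrotizing enterocolitis (NEC), an inflammatory injury of the immature bowel. The age of the mice, the way NEC was induced, the Cre line, and whether each library is a separate mouse were not given in the sources used here, so p-values measure the spread between these libraries.

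Fatty acids enter the pathway as acyl-CoA esters, cross the mitochondrial membranes bound to carnitine, and are then shortened in rounds of dehydrogenation, hydration, dehydrogenation and thiolysis. Electrons from the first step pass through the electron transfer flavoprotein to ubiquinone. Part of the acetyl-CoA formed can be turned into ketone bodies, which in rodents happens in the intestine during suckling, when milk fat is the main fuel. Peroxisomes carry out a parallel oxidation of very long chains, and the nuclear receptor encoded by Ppara drives transcription of much of the pathway.

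Depth was 13057724 to 16821130 reads per library, recovered from the deposited FPKM (reads scaled to gene length and library size). The control and NEC tables had been scaled separately, and the NEC table sat on average 0.15 log2 higher relative to a scale shared by all 12 libraries. Levels below are therefore given as joint FPKM, which puts all 12 libraries on a shared scale, always in the order of libraries 1, 2 and 3. A change is the log2 ratio of FPKM with 1 added, given with its standard error. A gene was called when its Benjamini-Hochberg adjusted p from limma was under 0.05. Genotypes were tested on the deposited FPKM within each table, and NEC against control on the joint FPKM. Since each condition is a table of its own, condition and table cannot be told apart. Statements that NEC raised or lowered a gene describe this comparison of libraries and name no cause. Deposited Piezo1 itself was at 1.38, 1.44 and 1.09 FPKM in flox control and at 1.71, 1.03 and 0.926 in CKO control, so the groups overlapped, the highest value was in a CKO library, and the control libraries do not by themselves bear out the label. With NEC it was at 7.38, 7.23 and 6.76 in flox and at 5.38, 5.58 and 3.23 in CKO, without overlap. Reads of mitochondrially encoded genes made up 12.8% ± 1.62 (SD, n = 3) of flox control libraries, 6.03% ± 0.843 of CKO control, 4.05% ± 0.407 of flox NEC and 4.09% ± 0.538 of CKO NEC. By Xist level, female libraries numbered 1 of 3 in flox control, 0 in CKO control, 2 in flox NEC and 1 in CKO NEC.

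The promoters of 3 members are shown because their genes bear on the results. Hadha shares its promoter with its partner subunit Hadhb, and both rose with NEC in flox. Etfa and Etfb encode the partner subunits of a single flavoprotein and were called in opposite directions with NEC in flox. The Etfa call was lost in 5 of the 6 fits that left out a library and under 4 of 11 other settings. Each sequence covers 250 bases before and 50 after the RefSeq start on GRCm38.p6, read 5′ to 3′ on the strand of the gene. In Hadha, at chr5:30154931-30155230 on the minus strand, capitals mark the 228 bases that also lie in the Hadhb window, since the starts of this divergent pair are 273 bases apart. In Etfa, at chr9:55512194-55512493 on the minus strand, capitals mark the match to a PPAR-type direct repeat. That match has 2 mismatches, and the repeat reads on the strand opposite to the one printed. Etfb, at chr7:43443822-43444121 on the plus strand, holds neither motif searched and is in lower case.
Hadha: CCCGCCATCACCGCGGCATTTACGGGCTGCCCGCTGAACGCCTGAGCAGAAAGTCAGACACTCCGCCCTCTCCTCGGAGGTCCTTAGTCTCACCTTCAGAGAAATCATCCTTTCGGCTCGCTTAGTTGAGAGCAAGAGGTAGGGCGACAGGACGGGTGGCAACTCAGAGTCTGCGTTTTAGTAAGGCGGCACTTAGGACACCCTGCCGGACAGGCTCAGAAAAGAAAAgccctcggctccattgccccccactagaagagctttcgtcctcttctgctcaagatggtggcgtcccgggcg
Etfa: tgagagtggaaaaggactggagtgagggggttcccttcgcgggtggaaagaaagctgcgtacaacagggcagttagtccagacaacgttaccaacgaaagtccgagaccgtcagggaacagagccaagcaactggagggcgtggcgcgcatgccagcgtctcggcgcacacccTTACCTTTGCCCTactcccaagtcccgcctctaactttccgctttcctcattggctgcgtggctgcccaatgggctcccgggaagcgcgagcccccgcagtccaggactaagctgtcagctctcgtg
Etfb: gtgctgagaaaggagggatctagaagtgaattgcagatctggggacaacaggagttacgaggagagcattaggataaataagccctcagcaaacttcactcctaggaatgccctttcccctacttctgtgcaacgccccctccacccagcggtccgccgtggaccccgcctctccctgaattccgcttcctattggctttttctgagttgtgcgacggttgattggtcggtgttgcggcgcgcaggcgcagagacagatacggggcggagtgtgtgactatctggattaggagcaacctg

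The direct repeat AGGTCANAGGTCA was searched on both strands with up to 2 mismatches among its 12 fixed letters. It was found in the windows of 2 of 28 members matched, Etfa and Slc25a20, which is 7.14% of them, beside 4.40% of all 27025 genes with a window. The element TCAAGGTCA, bound by estrogen-related receptors, had an exact match in 0 of 28 members and in 0.466% of all genes searched. The first motif holds AGGTCA, as does the second, so the motifs share letters. A match describes letters in these windows and not a bound site.

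Without injury, the CKO libraries held more RNA of most members than the flox libraries, but no member passed the test. Of the 31 members that passed the filter of at least 1 FPKM in at least 3 libraries, 28 had a higher fitted value in CKO control and 3 a lower one, where 54.4% of all genes tested were fitted higher. The median change was 0.36 log2, beside 0.04 over all 13300 genes tested, and with scaling by the nuclear read total it was 0.17, beside -0.12. In 16 members every CKO control library lay above every flox control library, against a background of 21.8% of genes, and Etfb alone lay below throughout, against 12.7%. Unadjusted p-values under 0.05 were reached by 16 members upward, where the background was 18.3%, and by Etfb downward, where it was 10.6%. The adjusted limma p of the members started at 0.0547, and 0 of 31 were called in either direction, beside 0% of genes called higher and 0.00752% called lower. The single gene called was the predicted gene Gm25637, listed at 0 in all 3 CKO control libraries. Without flox control library 3, 7 members were called higher, namely Acsl1, Cpt1a, Acadvl, Hadha, Etfa, Etfdh and Ehhadh, and 0 lower, beside 5.21% and 1.18% of all genes. In the fit of genes with a mean of at least 5 FPKM, 6 were called higher and Etfb lower, beside 8.55% and 1.83%. Cpt1b, the muscle isoform of carnitine palmitoyltransferase, was the member not tested, with 0 to 0.208 joint FPKM over the 12 libraries.

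**Figure D1:**
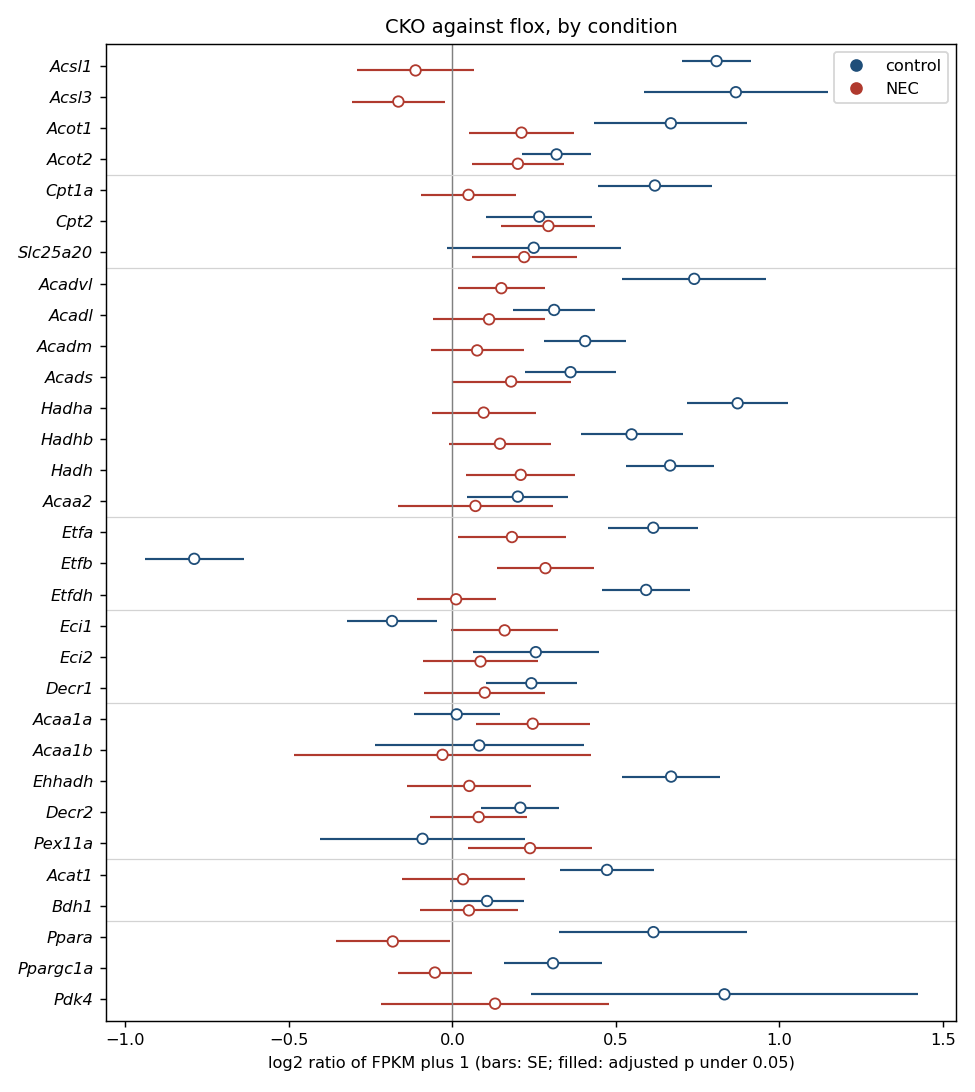
Each row is a member, ordered by role, with its log2 ratio of FPKM plus 1 between CKO and flox on the horizontal axis and bars for the SE (3 libraries a group). In control (blue) 28 of 31 points lie to the right of 0 and Etfb lies at -0.79, while in NEC (red) the points lie between -0.18 and 0.29. All points are open because none passed an adjusted p of 0.05.

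With NEC the genotypes overlapped in every member tested, while 26 of 31 members were fitted higher in CKO and 5 lower. Over all genes tested, 7182 of 13673 were fitted higher. No member was called, beside 0% of genes in either direction, and 0 of 31 had an unadjusted p under 0.05, where 2.17% of genes did upward and 2.21% downward. The fitted changes ran from -0.18 for Ppara to 0.29 for Cpt2, and the adjusted limma p-values ran from 0.840 to 0.991. The median change was 0.10 log2, beside 0.01 over all 13673 genes tested. In 0 of 31 members did the CKO NEC and flox NEC libraries stand apart, where the background was 4.83% of genes higher and 6.14% lower. The median standard error was 0.16 log2 for the members, and changes well above that size could also go uncalled at 3 libraries a group. The smallest adjusted limma p over all genes was 0.360. In control, with as many libraries, Acsl1 was not called at 0.81 ± 0.10 (SE). CKO NEC library 3 was the highest of its group in 26 of 31 members. Without it, the members' median change was -0.0066, and over the fits that left out 1 library the median ran from -0.0066 to 0.26.

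The difference between the genotype effects, that in NEC less that in control, was fitted below 0 for 26 of 31 members, where 52.1% of all genes were, with a median of -0.33 beside -0.02 over 14808 genes tested. It passed the test for 1 member, Etfb, in the upward direction, beside 0.209% of genes called higher and 1.01% called lower.

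Between control and NEC, 22 of 31 members were called in flox, 11 upward and 11 downward, where 28.6% and 27.7% of the 13791 genes tested were called. The members' counts were close to those shares and are given as a description. Those that rose were Acsl1, Acsl3, Cpt1a, Acadvl, Hadha, Hadhb, Etfa, Etfdh, Acaa1b, Ppara and Pdk4. Those that fell were Acot2, Cpt2, Hadh, Acaa2, Etfb, Eci1, Decr1, Acaa1a, Decr2, Acat1 and Bdh1. In CKO, NEC raised 2 members, Cpt1a and Ppara, beside 17.4% of the 13409 genes tested, and lowered 8, beside 20.3%. The 8 were Acsl1, Acot2, Hadh, Etfb, Eci1, Decr2, Acat1 and Bdh1. In CKO, 1 member was called higher without CKO control library 1 or 2, beside 14.6% and 12.4% of all genes, and 4 were without CKO control library 3, beside 14.0%. Both genotypes shared 2 of the rises (2 of 11 in flox and 2 of 2 in CKO) and 7 of the falls (7 of 11 in flox and 7 of 8 in CKO).

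**Figure D2:**
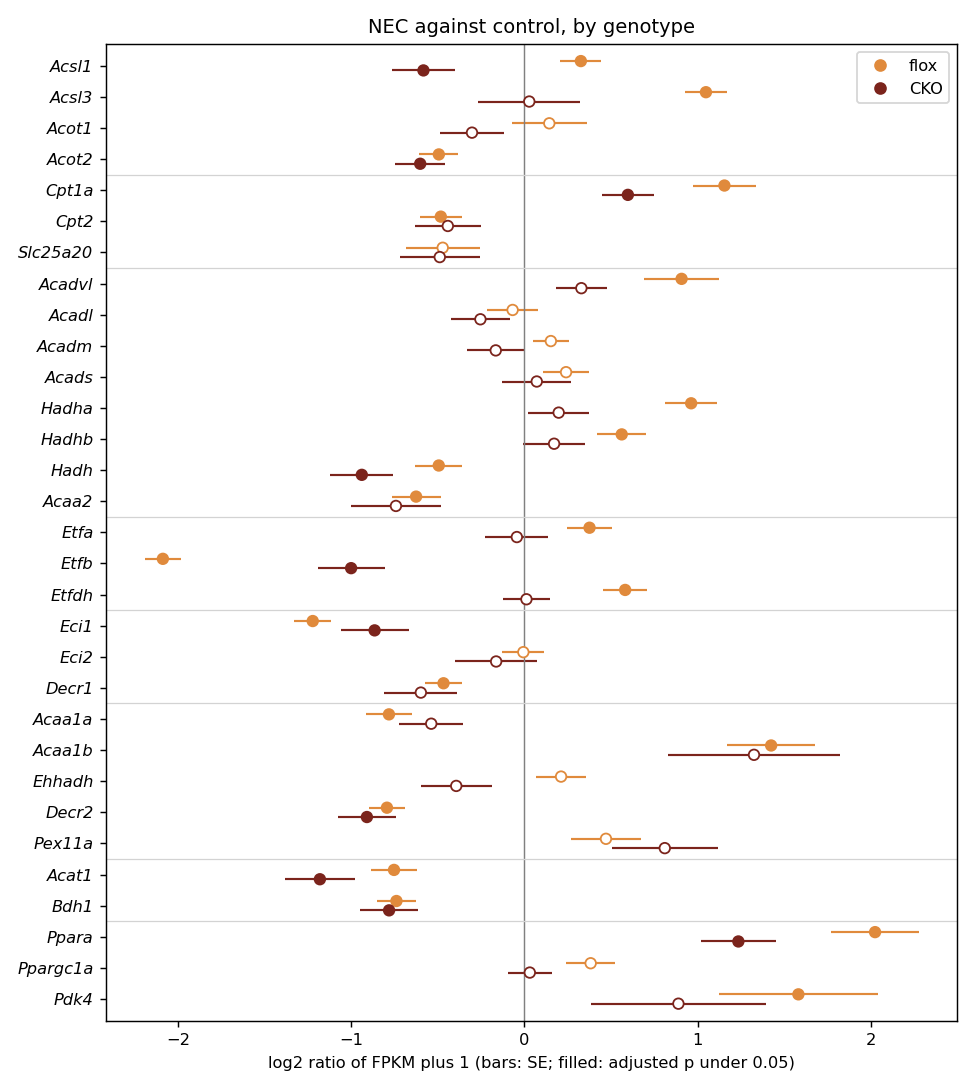
Each row is a member, ordered by role, with its log2 ratio of joint FPKM plus 1 between NEC and control on the horizontal axis and bars for the SE (3 libraries a group). Filled points passed an adjusted p of 0.05, 22 in flox (orange) and 10 in CKO (dark red), and they spread to both sides of 0, from Etfb at -2.09 to Ppara at 2.02 in flox.

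Among the members, thiolase Acaa2 had the highest mean level over the 12 libraries, 303 joint FPKM, followed by Acadl at 178, Cpt1a at 121, Hadh at 119, Bdh1 at 86.02 and Etfa at 80.8. The lowest tested members were Ppargc1a at 4.45, Ppara at 6.27 and Pex11a at 6.43. FPKM is per length of gene, here the length of all its annotated exons. Acaa1a has 4414 such bases, where its longest protein-coding transcript has 1762. Levels of different genes, and their order, can therefore be compared only roughly. The order differed between groups: in flox control alone the mean of Cpt1a was 68.9, below Hadh at 115, Bdh1 at 104, Eci1 at 78.6 and Etfb at 76.2, and Ppara was the lowest tested member, at 1.91.

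Activation and hydrolysis of acyl-CoA were represented by 2 synthetases and 2 thioesterases. All 4 had higher fitted values in CKO control, and none was called. Acsl1, which attaches CoA to long-chain fatty acids, stood at 14.2, 14.7 and 14.6 joint FPKM in flox control and at 24.3, 27.3 and 26.9 in CKO control. With NEC it stood at 16.2, 21.2 and 18.1 in flox and at 14.2, 15.6 and 22.6 in CKO. The control groups lay far apart relative to their spread, and NEC brought the genotypes to overlapping levels, up from the flox control and down from the CKO control. The genotype difference was 0.81 ± 0.10 (SE) in control, with an adjusted p of 0.0547, and -0.11 ± 0.18 in NEC, with an adjusted p of 0.904. With NEC, Acsl1 rose by 0.33 ± 0.12 (SE, adjusted p = 0.0483) in flox and fell by 0.58 ± 0.18 (SE, adjusted p = 0.0414) in CKO. The difference between these effects, -0.92 ± 0.21, had an adjusted p of 0.0598, and it was -1.10 (adjusted p = 0.0484) without CKO NEC library 3. Both NEC calls of Acsl1 were lost in 5 of the 6 fits that left out a library, with adjusted p-values up to 0.171 in flox and 0.122 in CKO, each being kept only without library 1 of flox NEC or library 3 of CKO NEC. The rise in flox turned into a change of -0.10 once a trend with gene length was removed.

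Acsl3, a synthetase of the endoplasmic reticulum and lipid droplets, was at 24.8, 30.3 and 25.7 in flox control and 56.7, 69.5 and 31.2 in CKO control. It was at 56.3, 60.7 and 52.7 in flox NEC and 44.4, 48.1 and 61.1 in CKO NEC. The flox control libraries were the lowest of the 12, and CKO control library 3 lay near them, away from its group. NEC raised Acsl3 by 1.05 ± 0.12 (SE, adjusted p = 0.000402) in flox, while in CKO the value was 0.03 ± 0.29, with an adjusted p of 0.948. The difference between the effects was -1.03 ± 0.34, with an adjusted p of 0.119, and it was -1.36 (adjusted p = 0.0256) without CKO control library 3. Exons of Utp14b on the same strand cover 5.60% of the Acsl3 exons. Group means of Utp14b were 1.90, 4.46, 6.61 and 6.03 joint FPKM in flox control, CKO control, flox NEC and CKO NEC. Its part in the Acsl3 levels was not tested.

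Acot1 and Acot2, thioesterases of the cytosol and of mitochondria that release free fatty acids, lie side by side on chromosome 12. Their transcripts are 93.8% identical over 1337 aligned bases, with a longest identical stretch of 273 bases, so reads may have been split between them and both levels are uncertain. Acot1 was at 11.1, 19.3 and 11.1 in flox control, 25.01, 23.2 and 17.98 in CKO control, 15.02, 16.8 and 13.01 in flox NEC and 18.8, 14.02 and 20.4 in CKO NEC. No comparison of Acot1 passed the test, and its groups overlapped in each. Acot2 was at 14.6, 15.03 and 16.1 in flox control, 19.7, 18.1 and 20.01 in CKO control, 11.1, 11.3 and 9.25 in flox NEC and 12.1, 10.5 and 14.7 in CKO NEC. Every NEC library lay below every control library of its genotype, and Acot2 fell by 0.49 ± 0.11 (SE, adjusted p = 0.00741) in flox and fell by 0.60 ± 0.14 (SE, adjusted p = 0.0168) in CKO. The call in CKO was lost without CKO control library 1 or CKO NEC library 1 or 2, at adjusted p-values of 0.0504, 0.0515 and 0.0569.

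In the carnitine shuttle, NEC raised 1 and lowered 1 of 3 tested members in flox and raised 1 in CKO. Cpt1a, the outer-membrane carnitine palmitoyltransferase that controls entry of long chains, was at 53.4, 68.998 and 84.2 in flox control and at 102, 106 and 106 in CKO control. It was at 146, 171 and 139.96 in flox NEC and at 141, 158 and 178 in CKO NEC. The groups ascended from flox control through CKO control to both NEC groups, without overlap between the control groups or between control and NEC. NEC raised Cpt1a by 1.15 ± 0.18 (SE, adjusted p = 0.00148) in flox and by 0.60 ± 0.15 (SE, adjusted p = 0.0206) in CKO. The call in CKO was lost without CKO control library 1 or 2 or CKO NEC library 2, at adjusted p-values of 0.0691, 0.0707 and 0.0574. The genotype difference in control was 0.62 ± 0.17, with an adjusted p of 0.0821.

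Cpt2, the inner-membrane enzyme that restores acyl-CoA, was at 42.8, 46.4 and 54.3 in flox control and 49.5, 55.3 and 69.2 in CKO control. It was at 34.1, 35.2 and 32.1 in flox NEC and 41.6, 35.02 and 50.9 in CKO NEC. The flox NEC libraries and CKO NEC library 2 were the lowest 4 of the 12. With NEC, Cpt2 fell by 0.48 ± 0.12 (SE, adjusted p = 0.0109) in flox, and the value in CKO was -0.44 ± 0.19, with an adjusted p of 0.106. Slc25a20, the carnitine-acylcarnitine carrier, ranged from 25.5 to 60.2 over the 12 libraries. Its highest values in both control groups were in libraries numbered 3, and none of its comparisons passed the test.

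**Figure D3:**
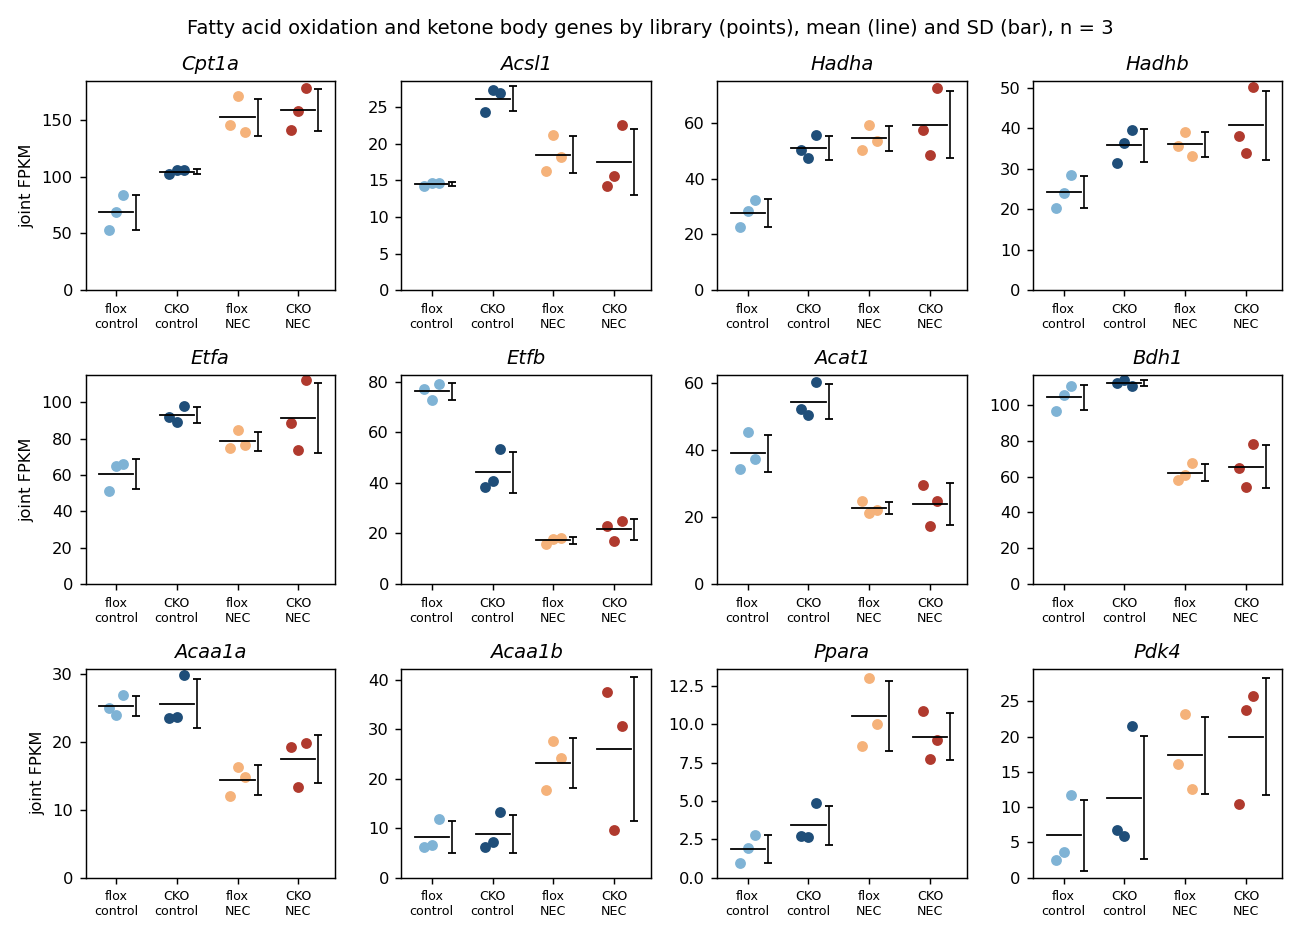
Points are joint FPKM in each library for 12 members, in 4 groups of 3 libraries, with the mean as a line and the SD as a bar, on axes that start at 0. Cpt1a, Hadha and Ppara are lowest in flox control, while Etfb is highest there, at 72.5 to 79.1, and reaches 15.8 to 25.0 with NEC.

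In the mitochondrial spiral, NEC raised 3 and lowered 2 of 8 members in flox and lowered 1 in CKO, while all 8 had higher fitted values in CKO control than in flox control and none was called there. The 3 that rose act on long or very long chains. Acadl also acts on long chains and was not called, at -0.07 ± 0.15 (SE, adjusted p = 0.710) in flox. Acadvl, the dehydrogenase of very long chains, was at 10.2, 15.4 and 19.7 in flox control and 23.9, 24.4 and 27.1 in CKO control. It was at 25.9, 30.5 and 28.5 in flox NEC and 33.5, 26.7 and 35.7 in CKO NEC. Flox control was below all other libraries, and NEC raised Acadvl by 0.91 ± 0.22 (SE, adjusted p = 0.00938) in flox. The value in CKO was 0.33 ± 0.15, with an adjusted p of 0.115. Exons of Dvl2 on the opposite strand cover 42.9% of the Acadvl exons, and Dvl2 was at 2.76 to 6.06 joint FPKM. Whether the counting used strand was not given in the sources used here.

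Hadha and Hadhb encode the alpha and beta subunits of the mitochondrial trifunctional protein, which carries out the last 3 steps on long chains, and are transcribed from the divergent promoter shown above. Hadha was at 22.5, 28.3 and 32.3 in flox control and 50.3, 47.3 and 55.8 in CKO control. It was at 50.4, 59.4 and 53.5 in flox NEC and 57.3, 48.4 and 72.5 in CKO NEC. Hadhb was at 20.4, 23.9 and 28.4 in flox control, 31.4, 36.3 and 39.5 in CKO control, 35.5, 39.2 and 33.2 in flox NEC and 38.1, 33.9 and 50.1 in CKO NEC. For both subunits the 3 flox control libraries were the lowest of the 12. NEC raised Hadha by 0.96 ± 0.15 (SE, adjusted p = 0.00145) and Hadhb by 0.56 ± 0.14 (SE, adjusted p = 0.0118) in flox. In CKO neither was called, with 0.20 ± 0.18 for Hadha and 0.17 ± 0.18 for Hadhb, at adjusted p-values of 0.407 and 0.478. The genotype difference in control was 0.87 ± 0.16 for Hadha and 0.55 ± 0.16 for Hadhb, with adjusted p-values of 0.0547 and 0.0828.

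Hadh, the dehydrogenase of shorter 3-hydroxyacyl chains, went the other way with NEC. It was at 106, 132 and 106 in flox control and 181, 178 and 187 in CKO control, and at 72.2, 86.9 and 84.3 in flox NEC and 93.3, 77.7 and 116 in CKO NEC. The CKO control libraries were the highest 3 of the 12. With NEC, Hadh fell by 0.49 ± 0.14 (SE, adjusted p = 0.0173) in flox and fell by 0.94 ± 0.18 (SE, adjusted p = 0.00866) in CKO. The call in flox was lost without flox control library 2 or flox NEC library 1, at adjusted p-values of 0.0564 and 0.0613. The genotype difference in control was 0.67 ± 0.13, with an adjusted p of 0.0570.

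Acaa2, the thiolase that releases acetyl-CoA from medium chains, was at 359, 392 and 291 in flox control and 394, 384 and 411 in CKO control. It was at 225, 226 and 219 in flox NEC and 268, 161 and 306 in CKO NEC. All NEC values of flox lay below all control values, and Acaa2 fell by 0.63 ± 0.14 (SE, adjusted p = 0.00741). In CKO the groups did not overlap either, at -0.74 ± 0.26 with an adjusted p of 0.0599, and the 3 NEC libraries were widely spread. The remaining acyl-CoA dehydrogenases were not called. Acadl, for long chains, was at 157, 166 and 180.1 in flox control and 205, 196 and 223 in CKO control. It was at 153, 191 and 139.6 in flox NEC and 157, 165 and 204 in CKO NEC, and the groups overlapped except between genotypes in control. Acadm, for medium chains, ranged from 19.1 to 31.8 and Acads, for short chains, from 34.9 to 69.5 over the 12 libraries.

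Of the 3 electron transfer members, NEC raised 2 and lowered 1 in flox, and lowered 1 in CKO. Etfa and Etfb are the 2 subunits of the flavoprotein that takes electrons from the acyl-CoA dehydrogenases, and Etfdh hands them to ubiquinone. Etfa was at 51.2, 64.8 and 65.9 in flox control and 91.7, 89.2 and 97.6 in CKO control, and at 74.8, 84.4 and 76.4 in flox NEC and 88.3, 73.5 and 112 in CKO NEC. Etfb was at 76.96, 72.6 and 79.1 in flox control and 38.2, 40.6 and 53.5 in CKO control. With NEC, Etfb was at 15.8, 17.8 and 17.97 in flox and 22.7, 17.01 and 24.98 in CKO. Flox control was therefore the lowest group for Etfa and the highest for Etfb, and CKO control was above it for Etfa and below it for Etfb, each without overlap. With NEC, Etfb fell by 2.09 ± 0.10 (SE, adjusted p = 4.48e-05) in flox and fell by 1.00 ± 0.19 (SE, adjusted p = 0.00847) in CKO. Etfa rose by 0.38 ± 0.13 (SE, adjusted p = 0.0434) in flox, and its value in CKO was -0.04 ± 0.18, with an adjusted p of 0.861. The Etfa call was lost without any 1 library but flox control library 3, at adjusted p-values up to 0.144. The genotype difference in control was 0.61 ± 0.14 for Etfa and -0.79 ± 0.15 for Etfb, with adjusted p-values of 0.0625 and 0.0547.

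The genotype difference of Etfb was 0.28 ± 0.15 in NEC, and the difference between NEC and control, 1.07 ± 0.22 (SE), was the one interaction called among the members, with an adjusted p of 0.0472. That call was close to the threshold and was lost in 10 of the 12 fits that left out a library and under 6 of 11 other settings, with values of 0.86 to 1.22 and adjusted p-values of 0.0506 to 0.124. It stayed only without library 3 of flox control or of CKO control. Predicted gene Gm45233 overlaps 53.0% of the Etfb exons on the same strand and was at 0.0681 joint FPKM or less in every library. Mir7051 overlaps 5.24% of them on that strand and was at 4.75 joint FPKM or less. How reads lying in shared exons were counted was not given in the sources used here, so these levels do not settle their effect on Etfb. Etfdh was at 8.87, 10.2 and 11.95 in flox control and 16.1, 17.2 and 14.8 in CKO control. It was at 15.3, 16.98 and 15.4 in flox NEC and 16.6, 13.8 and 18.3 in CKO NEC, so flox control again stood below all other libraries. NEC raised Etfdh by 0.58 ± 0.13 (SE, adjusted p = 0.00625) in flox, and the value in CKO was 0.01 ± 0.14.

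Of 3 enzymes of unsaturated chains, NEC lowered 2 in flox and 1 in CKO. Eci1, an isomerase that shifts double bonds for the spiral, was at 84.3, 74.6 and 76.8 in flox control and 79.9, 61.003 and 67.2 in CKO control. It was at 31.2, 35.6 and 32.6 in flox NEC and 39.5, 29.2 and 45.3 in CKO NEC. Every NEC library lay below every control library, and the genotypes overlapped in both conditions. With NEC, Eci1 fell by 1.22 ± 0.11 (SE, adjusted p = 0.000169) in flox and fell by 0.86 ± 0.20 (SE, adjusted p = 0.0141) in CKO. Decr1, the mitochondrial dienoyl-CoA reductase, was at 17.3, 18.6 and 21.1 in flox control and 19.997, 22.1 and 26.03 in CKO control. It was at 13.2, 12.9 and 14.1 in flox NEC and 17.1, 10.4 and 17.2 in CKO NEC. It fell by 0.47 ± 0.11 (SE, adjusted p = 0.00864) in flox, and the value in CKO was -0.60 ± 0.21, with an adjusted p of 0.0601. Eci2, an isomerase found in mitochondria and peroxisomes, ranged from 15.5 to 30.6 and was called nowhere.

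Of 5 peroxisomal members, NEC raised 1 and lowered 2 in flox and lowered 1 in CKO. Acaa1a and Acaa1b are paralogous thiolases on chromosome 9 whose transcripts are 95.3% identical over 1477 aligned bases, with an identical stretch of 327 bases, so their separate levels are uncertain. Acaa1a was at 25.1, 23.96 and 26.8 in flox control and 23.5, 23.6 and 29.9 in CKO control, and at 12.01, 16.3 and 14.9 in flox NEC and 19.3, 13.4 and 19.8 in CKO NEC. Acaa1b was at 6.17, 6.54 and 11.9 in flox control and 6.14, 7.12 and 13.2 in CKO control, and at 17.7, 27.5 and 24.2 in flox NEC and 37.5, 9.64 and 30.6 in CKO NEC. With NEC, Acaa1a was lower in every library while Acaa1b was higher in all but CKO NEC library 2, which lay within the control range. In flox, Acaa1a fell by 0.78 ± 0.13 (SE, adjusted p = 0.00198) and Acaa1b rose by 1.42 ± 0.25 (SE, adjusted p = 0.00270). In CKO neither passed the test, at -0.54 ± 0.18 and 1.32 ± 0.50, with adjusted p-values of 0.0546 and 0.0714. Without CKO NEC library 2, Acaa1b was called in CKO at 1.90 (adjusted p = 0.0140).

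Decr2, the peroxisomal dienoyl-CoA reductase, was at 20.7, 18.5 and 21.9 in flox control and 23.1, 22.1 and 25.7 in CKO control. It was at 11.6, 11.6 and 10.7 in flox NEC and 9.91, 11.7 and 15.2 in CKO NEC, below every control library. Decr2 fell by 0.79 ± 0.11 (SE, adjusted p = 0.000761) in flox and fell by 0.91 ± 0.17 (SE, adjusted p = 0.00724) in CKO. Pex11a, which promotes peroxisome division, was at 3.91, 3.97 and 7.18 in flox control and 3.48, 3.32 and 7.51 in CKO control. With NEC it was at 7.08, 7.24 and 6.97 in flox and 11.1, 6.09 and 9.32 in CKO. The control libraries numbered 3 were high in both genotypes, as for Slc25a20, and no comparison of Pex11a passed the test. Ehhadh, the bifunctional enzyme of peroxisomal oxidation, ranged from 23.1 to 47.01. Its CKO control libraries lay above its flox control libraries, at 0.67 ± 0.15 with an adjusted p of 0.0633.

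Both ketone body members fell with NEC in both genotypes. Acat1, the mitochondrial thiolase that forms acetoacetyl-CoA, was at 34.5, 45.3 and 37.3 in flox control and 52.1, 50.6 and 60.3 in CKO control. It was at 24.6, 21.3 and 21.98 in flox NEC and 29.6, 17.4 and 24.6 in CKO NEC. Bdh1, which interconverts acetoacetate and 3-hydroxybutyrate, was at 96.8, 106 and 110.5 in flox control and 112, 114 and 110.4 in CKO control. It was at 58.3, 60.7 and 67.3 in flox NEC and 64.5, 53.97 and 78.2 in CKO NEC. No NEC library of either gene reached the lowest control library. Acat1 fell by 0.75 ± 0.13 (SE, adjusted p = 0.00237) in flox and fell by 1.18 ± 0.20 (SE, adjusted p = 0.00610) in CKO. Bdh1 fell by 0.74 ± 0.11 (SE, adjusted p = 0.00134) in flox and fell by 0.78 ± 0.17 (SE, adjusted p = 0.0118) in CKO. Between genotypes, Bdh1 overlapped in both conditions, whereas Acat1 was higher in every CKO control library, at 0.47 ± 0.14 with an adjusted p of 0.0904.

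Of the 3 regulators, NEC raised 2 in flox and 1 in CKO. Ppara, the fatty acid receptor, was at 0.970, 1.95 and 2.79 in flox control and 2.73, 2.65 and 4.89 in CKO control. It was at 8.57, 13.04 and 10.01 in flox NEC and 10.9, 7.77 and 9.02 in CKO NEC. Every NEC library lay above every control library, a rise of 2.02 ± 0.25 (SE, adjusted p = 0.000580) in flox and 1.23 ± 0.22 (SE, adjusted p = 0.00633) in CKO. The genotypes overlapped in control and in NEC, and the interaction, -0.80 ± 0.36, had an adjusted p of 0.236. Pdk4, the kinase that shuts pyruvate dehydrogenase and so favours fat over glucose as fuel, was at 2.52, 3.69 and 11.8 in flox control and 6.70, 5.94 and 21.4 in CKO control. It was at 16.1, 23.3 and 12.6 in flox NEC and 10.5, 23.8 and 25.7 in CKO NEC. Library 3 stood apart in both control groups, and the rise in flox, 1.58 ± 0.46 (SE, adjusted p = 0.0212), still kept the groups apart. The call was lost without flox control library 1 or 2 or flox NEC library 1 or 2, at adjusted p-values of 0.0560 to 0.0673. In CKO the value was 0.89 ± 0.50, with an adjusted p of 0.201. Ppargc1a, a coactivator of mitochondrial genes, ranged from 2.89 to 5.40 and was called nowhere, with the nearest value 0.38 ± 0.14 for NEC in flox at an adjusted p of 0.0504.

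**Figure D4:**
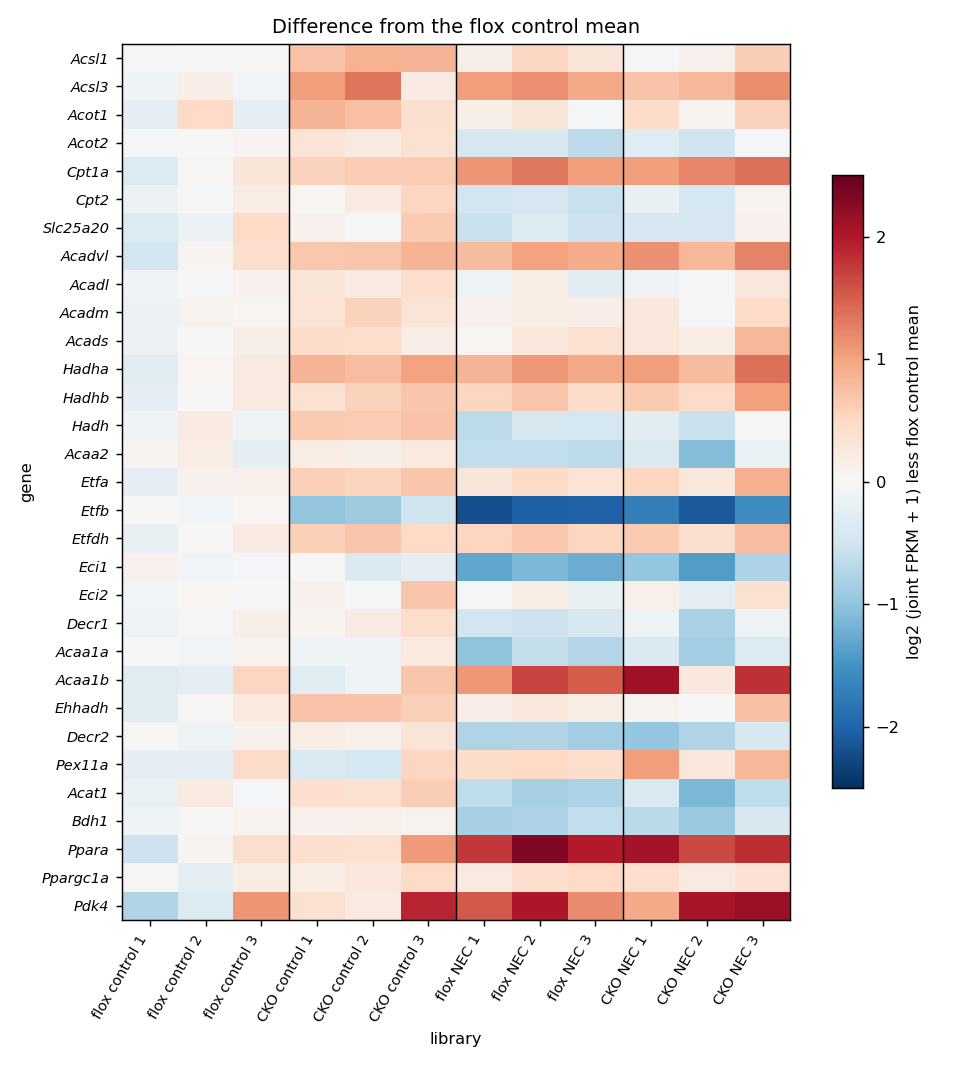
Rows are the 31 tested members by role and columns the 12 libraries, and colour gives log2 of joint FPKM plus 1 less the flox control mean of that gene. Etfb and Eci1 are blue in all NEC libraries and Ppara red, while the median over the members is 0.26 to 0.53 in the CKO control libraries and 0.01 to 0.48 in the CKO NEC libraries.

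Across the members, the median difference from the flox control mean in joint FPKM plus 1 was 0.35, 0.26 and 0.53 log2 in CKO control, 0.11, 0.28 and 0.17 in flox NEC, and 0.13, 0.01 and 0.48 in CKO NEC. The flox control libraries themselves stood at -0.15, 0.00081 and 0.13. The CKO control libraries thus lay above all flox control libraries, while those of CKO NEC were spread over nearly the whole range, with library 3 high. Without female flox control library 1, so that only male libraries were compared, the median genotype change in control was 0.32 and again 0 members were called. NEC held too few male libraries for the same comparison.

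Other genes of the pathway were counted by the same rules. From 63 further genes, all found, 55 were tested between genotypes in control and 54 in NEC, and 0 were called in either. In control 47 of 55 were fitted higher in CKO, beside 54.4% of all genes, with a median of 0.26, led by Acad11, an acyl-CoA dehydrogenase of very long chains, at 0.85 ± 0.14 (SE, adjusted p = 0.0547). In NEC 43 of 54 were fitted higher in CKO, beside 7182 of all 13673 genes, with a median of 0.12. NEC raised 14 and lowered 25 of 55 in flox, beside 28.6% and 27.7% of all genes, and raised 8 and lowered 25 of 56 in CKO, beside 17.4% and 20.3%. Phyh, which starts alpha-oxidation of branched chains, fell by 1.04 ± 0.10 (SE, adjusted p = 0.000192) in flox and fell by 1.38 ± 0.22 (SE, adjusted p = 0.00488) in CKO. Mlycd, which degrades malonyl-CoA, the inhibitor of Cpt1a, fell by 1.25 ± 0.13 (SE, adjusted p = 0.000275) in flox and fell by 0.96 ± 0.12 (SE, adjusted p = 0.00294) in CKO. Acot13, a mitochondrial thioesterase, fell by 1.496 ± 0.14 (SE, adjusted p = 0.000216) in flox and fell by 0.94 ± 0.20 (SE, adjusted p = 0.0116) in CKO. Pdk1, a sister kinase of Pdk4, rose by 1.09 ± 0.11 (SE, adjusted p = 0.000225) in flox and 1.17 ± 0.13 (SE, adjusted p = 0.00207) in CKO. Abcd3, a peroxisomal importer of acyl-CoA, rose by 1.23 ± 0.18 (SE, adjusted p = 0.00105) in flox and 0.80 ± 0.24 (SE, adjusted p = 0.0345) in CKO. Ppargc1b, a coactivator related to Ppargc1a, rose by 1.07 ± 0.13 (SE, adjusted p = 0.000544) in flox and 0.88 ± 0.17 (SE, adjusted p = 0.00878) in CKO. Acss1, which activates acetate in mitochondria, fell by 0.63 ± 0.14 (adjusted p = 0.00661) in flox and by 1.28 ± 0.16 (adjusted p = 0.00284) in CKO. Acot3, a peroxisomal thioesterase of the Acot1 family, with which it may share reads, fell by 1.29 ± 0.24 (adjusted p = 0.00328) in flox and by 1.41 ± 0.18 (adjusted p = 0.00296) in CKO. Of the interactions, 0 of 57 were called, and 5 had an unadjusted p under 0.05, all downward, where 13.2% of all genes did.

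Cell type markers moved with these comparisons, and their part in the results was not tested. In whole tissue, fewer cells of a type and less RNA per cell cannot be told apart. All 12 enterocyte markers were detected, and their summed level was 20805 to 25713 joint FPKM in flox control, 19242 to 28568 in CKO control, 7469 to 11717 in flox NEC and 9359 to 13109 in CKO NEC. Apoa1, with group means of 12072 and 3036 in flox, and Apoa4, with 6060 and 2660, made up most of that sum, and 5 of the 12 markers had a higher mean with NEC in flox (Fabp2, Cdh17, Slc5a1, Krt20 and Mttp) and 4 of 12 in CKO. The 6 markers of suckling enterocytes summed to 1485 to 1924 in flox control, 2079 to 2847 in CKO control, 246 to 332 in flox NEC and 264 to 464 in CKO NEC. Clec4g, one of these 6, was at 0.0576 or less in every library. General epithelial markers, 5 genes, summed to 1953 to 2351 in flox control and 2525 to 2899 in CKO control, without overlap, and to 2015 to 2345 and 1997 to 2672 with NEC. In CKO control 3 of the 5 had a higher mean than in flox control, led by Epcam at 1401 beside 886, while Krt18 and Krt19 had lower means. With NEC in flox 3 of the 5 were higher, among them Krt19 at 404 beside 105, while Epcam fell to 544 and Krt18 also fell. The 6 smooth muscle markers summed to 690 to 882 in flox control and 189 to 604 in CKO control, and to 1808 to 2847 in flox NEC and 521 to 2044 in CKO NEC, where library 3 was lowest. Of the smooth muscle markers, 5 of 6 had a higher mean with NEC in each genotype, and Tagln had a lower one. The 6 fibroblast markers summed to 147 to 285, 57.1 to 164, 430 to 583 and 284 to 474 in the order flox control, CKO control, flox NEC and CKO NEC. The 4 endothelial markers summed to 12.9 to 24.2, 13.1 to 19.1, 33.97 to 40.5 and 28.5 to 34.6, and the 6 leukocyte markers to 59.9 to 92.4, 68.0 to 73.4, 36.4 to 43.4 and 28.8 to 41.6, so the former were higher and the latter lower with NEC, without overlap. Of 6 adipocyte markers 2 reached 1 FPKM, Cidec at 52.1 to 130.2 joint FPKM over the 12 libraries and Cidea at up to 1.19, while Adipoq was at 0.104 or less. Of 6 liver markers 4 reached 1 FPKM, namely Ttr at 14.3 to 388, Cps1, which enterocytes also express, at 105 to 294, Serpina1a at up to 13.3 and Fgb at up to 7.73, while Alb was at 0.327 or less and Apoh at 0.223 or less. The liver list summed to 263 to 509, 371 to 561, 219 to 238 and 179 to 260 in the order of groups above. All 5 striated muscle markers reached 1 FPKM, and they summed to 3.53 to 13.6 over the 12 libraries.

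Changes also followed gene length over all genes, which bears on single members. In flox, the median change with NEC over protein-coding genes was -0.61 for lengths under 1500 bases, -0.18 from 1500 to 4000, 0.17 from 4000 to 8000 and 0.44 from 8000 bases up. In the genotype comparison without injury the same medians were -0.21, 0.01, 0.11 and 0.18. Etfb and Eci1, with 1164 and 1091 bases, are the shortest members, and Acsl1, with 10483, is the longest. With the length trend removed, the NEC change in flox was -1.68 for Etfb (adjusted p = 8.60e-05) and -0.81 for Eci1 (adjusted p = 0.000665). The calls in flox were lost for Acsl1, Acot2, Cpt2, Hadhb, Acaa2 and Etfdh and gained for Acads and Pex11a, which left 16 of 22 calls in place. All 10 calls in CKO stayed. In the genotype comparison in control the members' median was then 0.42, and Etfb was at -0.59 (adjusted p = 0.0721). Over the 31 members, Spearman's rho between length and change was 0.31 for NEC in flox and 0.44 for genotype in control, beside 0.39 and 0.25 over all protein-coding genes, given as a description.

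**Figure D5:**
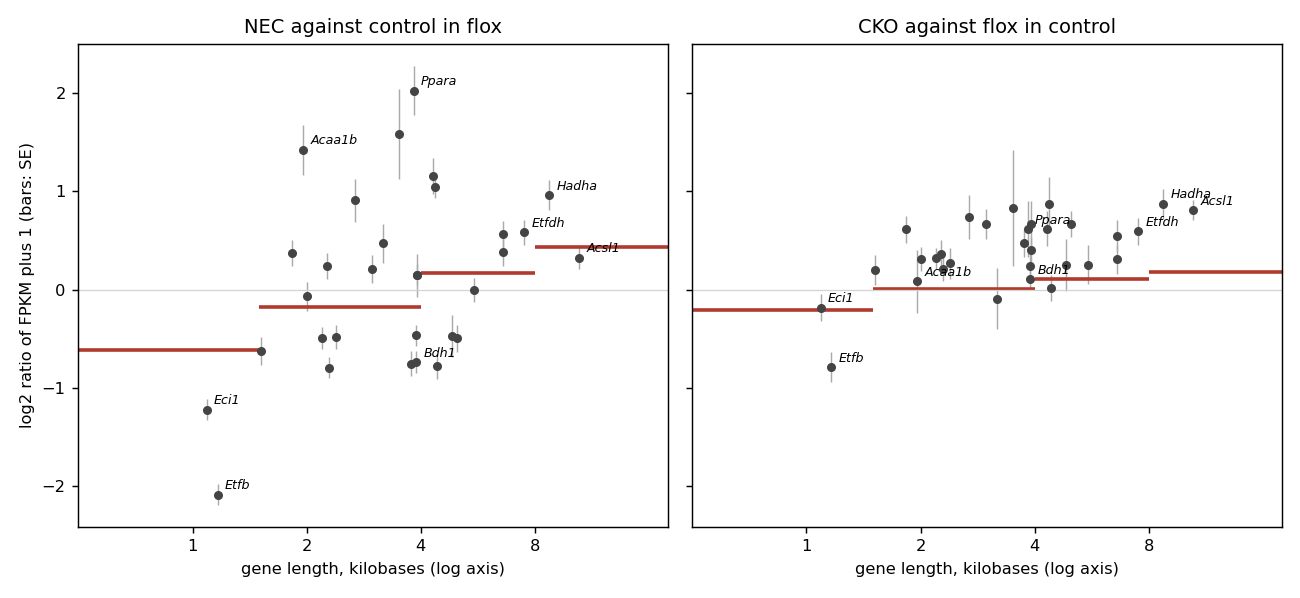
Each point is a member, with gene length in kilobases on a log axis and the log2 ratio of FPKM plus 1 with its SE, for NEC against control in flox (left) and CKO against flox in control (right). Red lines are medians of all protein-coding genes in 4 length classes, from -0.61 to 0.44 on the left, and Etfb lies below the line of its class on both sides while Ppara and Acaa1b lie above theirs on the left.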

How the data were processed

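RNA was isolated from small intestine with Trizol and libraries were made with an Illumina RNA kit, per the labels. The authors deposited FPKM with gene lengths, in 1 table for each condition. The aligner, the counter and the genome build were not given in the sources used here. Of 54409 genes matched, 53499 (98.3%) have the coordinates of GENCODE M21, on GRCm38.

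FPKM times length fell on whole steps within 0.05 for 100% of values, which gave reads per gene and, with median-of-ratios factors over 17568 genes in all 12 libraries, the joint FPKM. Reads are counted without molecular identifiers, and their number limits precision. Log2 of FPKM plus 1 was tested with limma 3.58.1 (R 4.3.3, variance trend) over all genes with at least 1 FPKM in at least 3 of the libraries fitted, with Benjamini-Hochberg adjustment at 0.05. The tests were tried on simulated data. Genotype fits used 6 libraries, the interaction 12. Values in every library are given for members called anywhere, for the 8 with the highest mean, for the 4 with the largest change in each comparison and for the paralog pairs. The other pathway genes named are the 8 of 63 with the smallest p among those called in any comparison, except that Acad11 was picked after its values were seen. The members and lists were chosen with earlier results of these data known. The alternatives were other pseudocounts, filters, scalings, a replicate block, voom on recovered reads, length and GC trends removed, and leaving out each library.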

Additional observations from a re-analysis of the deposited data

Results flagged for a closer look

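Acsl1 was marked because its groups moved in opposite directions: every flox NEC library lay above every flox control library, and every CKO NEC library lay below every CKO control library. The difference between these effects was -0.92 ± 0.21 (SE) on the log2 scale, with an adjusted limma p of 0.0598, so it did not pass the threshold.

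Etfb was marked because its genotype difference in NEC and in control differed by test. The difference was 1.07 ± 0.22 (SE), with an adjusted limma p of 0.0472. Etfb was lower in all 3 CKO control libraries than in any flox control library, while the NEC groups overlapped.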

How the results depend on the processing

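Of the 22 members called with NEC in flox, 13 kept their call and direction under every alternative, as did 7 of the 10 called in CKO. Between genotypes in NEC, 0 members were called under every alternative, and 0 of 31 had an unadjusted p under 0.05. Between genotypes in control, 6 members were called higher and 1 lower among genes with a mean of at least 5 FPKM, where 8.55% and 1.83% of genes were, and 6 higher and 1 lower with the replicate block, where 5.26% and 1.53% were. Correlations of same-numbered deviations between genotypes were 0.11, -0.03 and 0.36 in control and 0.16, -0.12 and 0.07 in NEC. The highest was that of the control libraries numbered 3. Whether libraries of the same number were paired or handled together was not given in the sources used here. For the interaction, 0 members were called higher with no filter, with equal library medians, with no variance trend, with the length or GC trend removed and with values rescaled over all 12 libraries, and 1 was called lower (Acsl1) among genes with a mean of at least 5 FPKM. Scaling by the nuclear read total moved the median of all genes to -0.12 between genotypes in control, 0.11 in the interaction, 0.12 for NEC in flox and 0.22 for NEC in CKO. The members' medians were then 0.17, -0.16, 0.27 and 0.039, the last reversed, and 7 of 31 were called higher with NEC in CKO, beside 29.6% of all genes. With the length trend removed 4 were, beside 15.6%, and with deposited FPKM 4 were, beside 23.3%. Deposited FPKM gave a median of 0.30 for NEC in flox. Acsl1 turned to -0.10 for NEC in flox with the length trend removed. The cause of these shifts was not tested.

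Leaving out 1 library at a time, the members' median genotype change ran from -0.0066 to 0.26 in NEC and from 0.30 to 0.44 in control, where 0 to 7 were called higher. The interaction median ran from -0.37 to -0.19, with 0 to 1 called in each direction. For NEC in flox it ran from 0.08 to 0.22, with 8 to 13 called higher and 10 to 12 lower, and for NEC in CKO from -0.37 to -0.15, with 1 to 4 called higher and 6 to 10 lower. Cpt1b, at 0.208 joint FPKM or less, was too low to test. Predicted gene Gm44502 overlaps 81.4% of the Cpt1b exons on the same strand and was at 0 in every library. How reads lying in both genes were counted was not given in the sources used here.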
